A study of Mus musculus with 27 samples.

Results

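The response to thoracic irradiation that the lungs of 3 inbred mouse strains had in common was taken from all 27 arrays of the series, 18 from irradiated mice against 9 from sham-irradiated mice, with the strain as a block. The irradiated groups were C57L/J, C57BL/6J and CBA/J females that had received 12.5 or 15 Gy of X-rays to the whole thorax, and the sham groups were females of the same strains at 0 Gy. With 3 mice aged 10 to 12 weeks per strain at each dose, every strain gave 6 irradiated and 3 sham mice, and lung RNA was taken 24 h after exposure. The lung was the right upper lobe, 1 mouse per array with no pooling, hybridized to Affymetrix mouse oligonucleotide arrays, so that the p-values below measure the spread between mice. The strains carry no transgene. The strain entry of the CBA/J arrays reads CBA with a prefix, and CBA/J is the name in the growth protocol of all samples. RNA came from the whole lobe, so fewer cells of a type and less RNA per cell cannot be told apart.

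Ionizing radiation breaks DNA, and the breaks activate the transcription factor p53, which switches on genes that halt the cell cycle, repair DNA or start cell death. Lymphocytes are among the most radiosensitive cells of the body and die within hours of exposure, whereas alveolar and airway epithelium turns over slowly. The irradiated lung can develop pneumonitis weeks later and, in some strains, fibrosis.

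Of 18194 genes, each read from its brightest probe set, 1111 were higher (6.11%) and 1606 lower (8.83%) in irradiated lungs at a Benjamini-Hochberg adjusted p under 0.05 by limma, and 93 of the higher and 188 of the lower genes changed over 2-fold. The median log2 change of all genes was -0.01. The genes that rose most were Cdkn1a, which encodes the cell cycle inhibitor p21, Gm6958, a predicted gene of unknown role, and the carboxylesterase gene Ces2e. Those that fell most were the proliferation marker Mki67, the immunoglobulin heavy chain gene Ighv14-2 and H2-Ob, whose product tunes peptide loading of MHC class II in B cells. A stricter count asked that all 6 irradiated mice of a strain lie beyond all 3 of its sham mice, in each strain: 91 genes (0.5%) lay above and 219 genes (1.2%) below, and all of them also passed the test over all mice. Of the genes that passed that test, 98.6% had the same sign in each strain (1094 higher and 1586 lower). Both results rest on the arrays of that test, which favours genes whose strains agree, so they add no support to it.

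Lung markers were high on every array, with log2 intensities of 14.2 to 14.9 for surfactant protein C (Sftpc) in irradiated and 14.5 to 14.9 in sham lungs, and of 14.6 to 15.3 for the club cell secretoglobin Scgb1a1 in irradiated and 14.8 to 15.2 in sham lungs. Other tissue was uneven. On 9 arrays, 7 of 18 irradiated and 2 of 9 sham, the mean of 14 skeletal muscle genes stood more than 1.5 log2 units above that of the median array, and over all arrays it ran from 5.73 to 14.62 in irradiated and from 6.13 to 10.45 in sham lungs. These arrays were 1 of 6 irradiated C57L/J, 4 of 6 irradiated C57BL/6J, 2 of 6 irradiated CBA/J and 2 of 3 sham CBA/J arrays. The thymus gene Rag1 exceeded a log2 intensity of 6 on 2 irradiated and 4 sham arrays, the lymph node venule gene Glycam1 on 3 irradiated and 1 sham array, and thyroglobulin (Tg) on 3 irradiated and 0 sham arrays. None of the 14 skeletal muscle genes passed the test of irradiation, and their median change was 1.38. Without the muscle arrays, 11 irradiated and 7 sham arrays gave 707 higher and 1040 lower genes, and without any array holding transcripts of muscle, thymus, lymph node or thyroid, 10 irradiated and 3 sham arrays (none of them sham CBA/J) gave 235 higher and 313 lower genes. In that last fit the 4 CBA/J arrays inform the spread but not the change. The change rests on 4 irradiated and 2 sham C57L/J arrays and on 2 irradiated and 1 sham C57BL/6J arrays. The part that these tissues play in a change was not tested, and values without the muscle arrays stand beside several of the results below. Fewer arrays entered these fits, so a lower count in a list is to be read beside the lower counts of all genes. Below, arrays holding other tissue are those left out by the skeletal muscle genes, Rag1, Glycam1 or Tg. No array was left out for transcripts of fat, squamous epithelium or cardiac muscle.

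**Figure D1:**
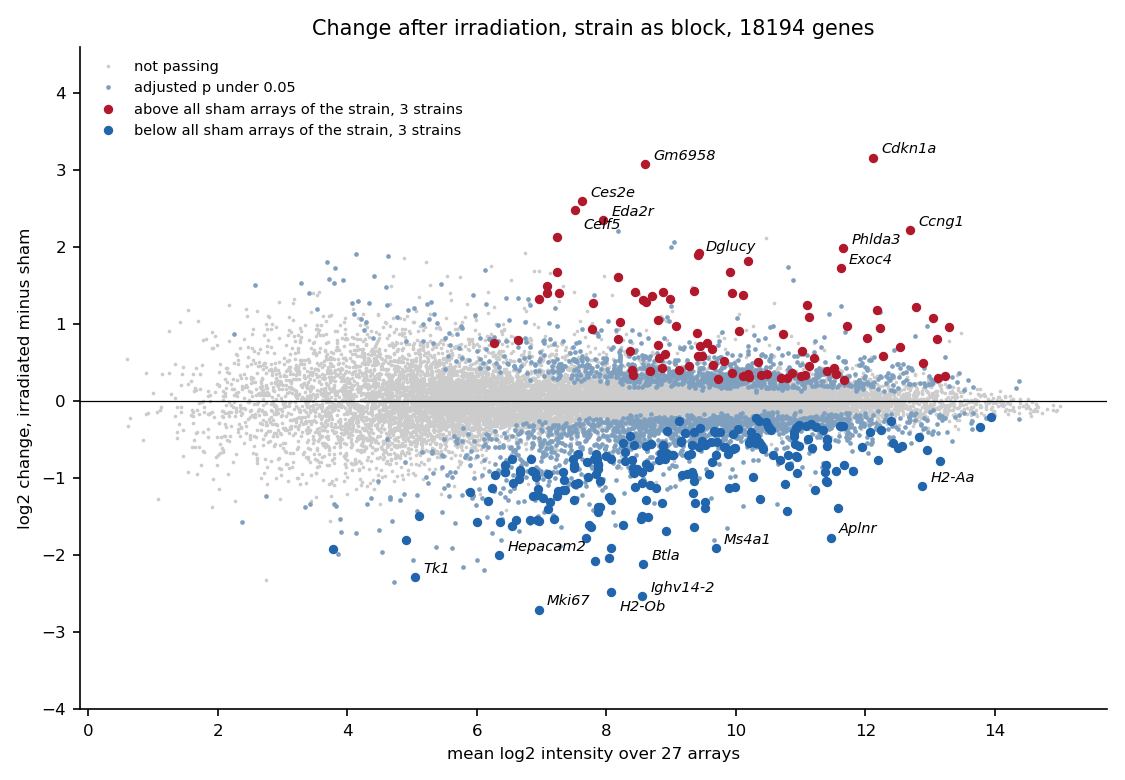
Log2 change of each of 18194 genes, irradiated minus sham with the strain as a block (vertical axis), against its mean log2 intensity over 27 arrays (horizontal axis). Red and blue points are the 91 and 219 genes whose irradiated mice all lay above or below all sham mice of their strain, in 3 strains, and pale blue points are other genes at an adjusted p under 0.05.

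Cdkn1a had log2 intensities of 12.73 to 13.59 in the 18 irradiated lungs (median 13.17), against 9.68 to 10.35 in the 9 sham lungs (median 9.91). The groups did not overlap. The gene rose by 3.16 ± 0.10 on the log2 scale, 8.95-fold (SE, 95% interval 2.96 to 3.37, limma adjusted p = 1.6e-17), by 3.21 in C57L/J, 3.09 in C57BL/6J and 3.19 in CBA/J. Its mean was 13.33 at 12.5 Gy and 13.15 at 15 Gy in C57L/J, against 10.03 in sham lungs of that strain. Across strains the rise was 3.15 at 12.5 Gy and 3.18 at 15 Gy, both set against the same sham mice.

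Ccng1, the cyclin G1 gene that feeds back on p53, was at 12.99 to 13.73 in irradiated lungs (median 13.45), against 10.85 to 11.71 in sham lungs (median 11.08). It rose by 2.22 ± 0.07 (adjusted p = 1.4e-17), and both of its other probe sets rose too, by 2.02 and 2.22. Phlda3, which restrains the survival kinase Akt, was at 11.87 to 12.66 (median 12.34) in irradiated lungs, against 10.14 to 10.55 (median 10.35) in sham lungs, a rise of 1.99 ± 0.07 (adjusted p = 3.6e-17). Ccng1 and Phlda3 were also free of overlap between irradiated and sham mice over all strains. Zmat3, an RNA-binding zinc finger protein, rose by 1.38 ± 0.09 (adjusted p = 6.1e-11).

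Of 25 measured genes of p53-dependent arrest and feedback, 14 rose (56%) and 1 fell (4%), and 10 had no overlap between irradiated and sham mice in any strain. Their median change was 0.42, against -0.01 for all genes. Over all genes, for this and every later list, 6.11% were higher and 8.83% lower. In all 3 strains at once, 0.5% of all genes lay above and 1.2% below every sham mouse of their strain. Other members that rose were Sesn2 and Trp53inp1, stress-response genes, Aen, a nuclease that promotes apoptosis, and Mdm2 and Ppm1d, which shut p53 signalling off. Mdm2 rose by 0.68 and Ppm1d by 0.35, while Sesn1, a relative of Sesn2, fell by 0.22. Ddb2 and Xpc, damage sensors of nucleotide excision repair, had changes of -0.01 and -0.15 that did not pass (adjusted p = 0.98 and 0.22), as did Gadd45a at 0.23 (adjusted p = 0.068). The mean of the list was 10.02 to 10.54 per array in irradiated and 9.49 to 9.63 in sham lungs.

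Among 20 p53 genes that act in cell death, 12 rose and 2 fell, with a median change of 0.55. Eda2r, a death receptor of the tumor necrosis factor receptor family, was at 8.11 to 9.44 in irradiated lungs (median 8.83), against 5.87 to 6.84 in sham lungs (median 6.40), and rose by 2.35 ± 0.15 (adjusted p = 6.1e-11). Bbc3, which encodes the BH3-only protein Puma, was at 8.85 to 9.84 (median 9.46), against 7.65 to 8.59 (median 8.02) in sham lungs, a rise of 1.33 ± 0.10 (adjusted p = 4.4e-10). Neither gene's groups overlapped. Ddias, an anti-apoptotic gene of the damage response, rose by 2.13 ± 0.16 (adjusted p = 5.5e-10), and Ei24, a p53-induced membrane protein gene, by 0.95 ± 0.08 (adjusted p = 2e-09). The death receptors Fas and Tnfrsf10b rose by 0.63 and 0.82, and Pmaip1, the Noxa gene, by 0.71. The members that fell were Pltp, a phospholipid transfer protein, by 0.34 and the receptor Tnfrsf1b by 0.33 (adjusted p = 0.015, and 0.11 without the muscle arrays). Perp and Bid, with changes of 0.44 and -0.15, did not pass (adjusted p = 0.41 and 0.28).

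The promoters of 3 of these genes are shown because their windows hold letters of the p53 half-site, the decamer that p53 binds in pairs. Each is the 200 bases before a transcription start in RefSeq (build GRCm38.p6), written 5′ to 3′ with half-site matches in capitals. Cdkn1a has a second start in the table, and the stretch shown precedes the upstream one.
Cdkn1a, chr17:29090779-29090978, plus strand: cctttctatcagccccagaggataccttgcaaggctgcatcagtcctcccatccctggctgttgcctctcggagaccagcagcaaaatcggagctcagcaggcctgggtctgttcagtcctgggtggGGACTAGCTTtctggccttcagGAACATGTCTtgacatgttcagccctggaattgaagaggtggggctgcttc
Ccng1, chr11:40755287-40755486, minus strand: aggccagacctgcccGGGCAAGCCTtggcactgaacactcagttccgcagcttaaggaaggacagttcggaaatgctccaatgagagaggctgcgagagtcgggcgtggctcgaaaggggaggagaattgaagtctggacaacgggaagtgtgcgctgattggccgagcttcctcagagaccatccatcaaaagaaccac
Ei24, chr9:36797335-36797534, minus strand: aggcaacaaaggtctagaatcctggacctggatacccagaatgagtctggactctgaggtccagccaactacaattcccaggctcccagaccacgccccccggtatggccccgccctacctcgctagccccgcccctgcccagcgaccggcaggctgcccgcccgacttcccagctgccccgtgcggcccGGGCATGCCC
The motif is its own reverse complement, so both strands were read. Cdkn1a held 2 matches, from -73 and from -51 counted from the start. Of the 12 genes of arrest and feedback that rose and had a window of 250 bases before to 50 after a start, 7 held a match (58.3%), against 8.59% of 14453 measured genes and 9.55% of all 27025 genes in the promoter table. Sesn1, which fell, also held one, and 9 of 19 windows did over the whole list, called or not (47.4%). Of the p53 death genes, 2 of the 10 that rose and had a window held a match (20%), and 2 of 17 over that whole list (11.8%). Of 76 genes with a window among those above every sham mouse in each strain, 18 did (23.7%). Of the measured genes, 8 held a pair of matches at most 13 bases apart, and Cdkn1a was among them. A match is a description of the letters and not of binding, and a gene with several starts counted when any window held it.

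The 12 largest rises with no overlap in any strain also held genes outside the p53 lists. Ces2e was at 7.89 to 9.05 in irradiated lungs (median 8.58), against 5.36 to 6.54 (median 5.94) in sham lungs, and rose by 2.60 ± 0.15 (adjusted p = 8.3e-12). It stands in the NRF2 list. Celf5, which encodes an RNA-binding protein, was at 7.54 to 9.08 (median 8.39), against 5.50 to 6.23 (median 5.90) in sham lungs, a rise of 2.48 ± 0.15 (adjusted p = 1.6e-11). Neither Ces2e nor Celf5 overlapped between irradiated and sham mice. Gm6958 was at 6.38 to 11.49 (median 9.73), against 5.36 to 7.69 (median 6.85) in sham lungs, so that irradiated CBA/J mice overlapped with sham mice of other strains but with none of their own. Dglucy, the mitochondrial D-glutamate cyclase gene, rose by 1.90 ± 0.08 (adjusted p = 1.2e-14), Exoc4, an exocyst subunit gene, by 1.73 ± 0.10 (adjusted p = 8.2e-12), Serpina3n, a serine protease inhibitor gene of the acute phase, by 1.82 ± 0.17 (adjusted p = 2.8e-08) and Ddit4l, a stress-induced inhibitor of mTORC1, by 1.92 ± 0.23 (adjusted p = 1.3e-06). Exoc4 had 4 other probe sets and all of them rose.

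**Figure D2:**
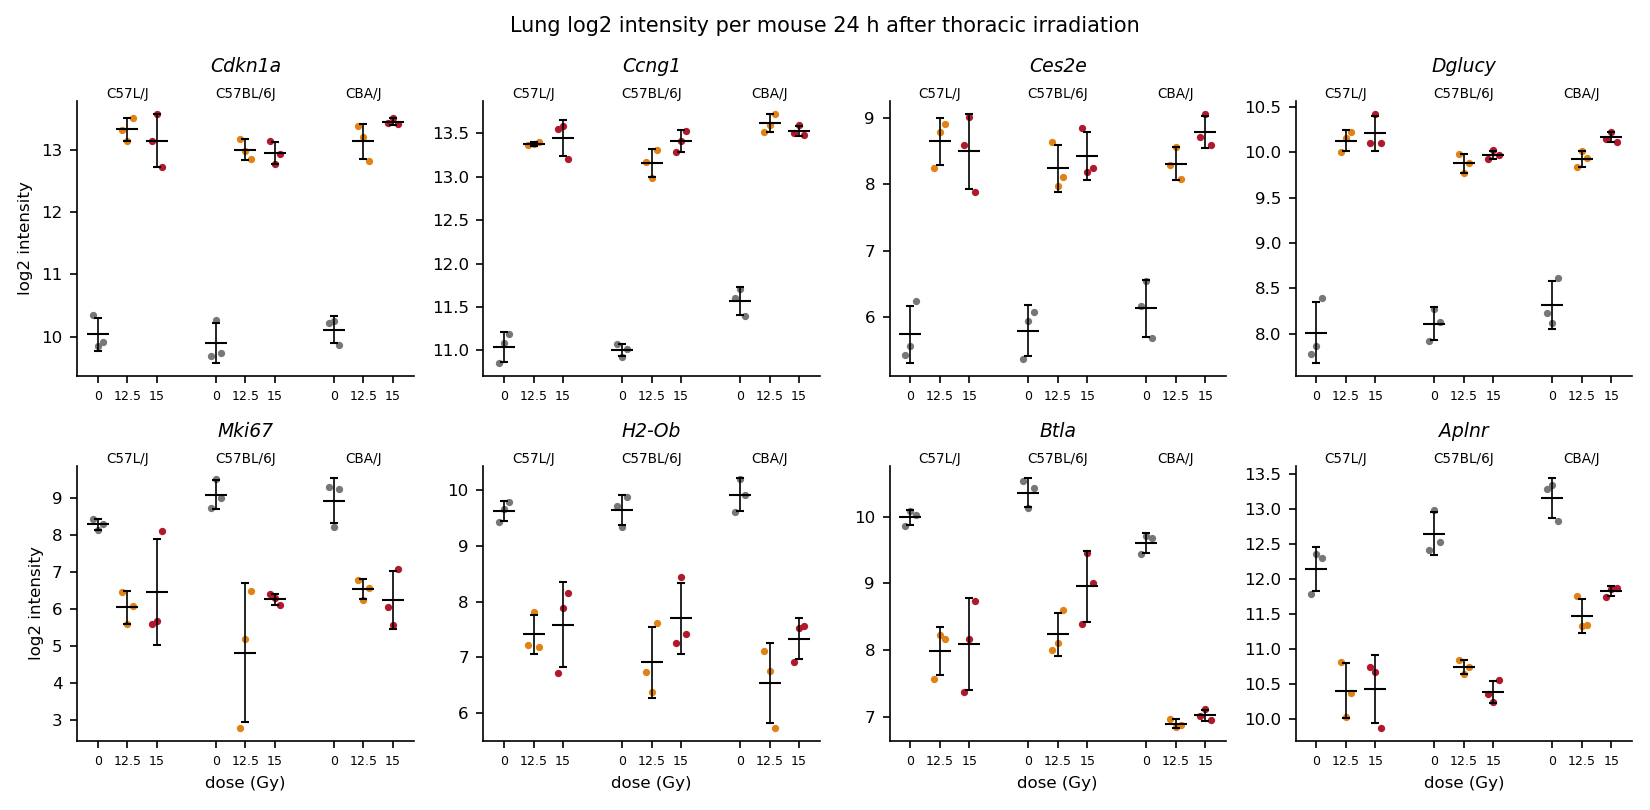
Log2 intensity (vertical axes) of 8 genes in each mouse at 0, 12.5 and 15 Gy (horizontal axes) in C57L/J, C57BL/6J and CBA/J, with 1 point per mouse and the mean ± SD of 3 mice in black. In the upper row every irradiated mouse lies above the sham mice of its strain, as for Cdkn1a at 12.73 to 13.59, and in the lower row below them.

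Genes of cell division fell. Mki67 was at 2.77 to 8.11 in irradiated lungs (median 6.16), against 8.13 to 9.51 in sham lungs (median 8.73), and fell by 2.71 ± 0.37 on the log2 scale (adjusted p = 9.8e-06). The groups did not overlap, although the highest irradiated array, a C57L/J lung at 15 Gy with muscle and thymus transcripts, was near the lowest sham array. Of 72 mitosis genes, 41 fell and 2 rose, with a median change of -0.62. Top2a, the topoisomerase that untangles chromosomes, fell by 1.09 ± 0.12 (adjusted p = 2.4e-07), the cyclin B2 gene Ccnb2 by 0.91 ± 0.09 (adjusted p = 1.2e-07) and the condensin gene Smc4 by 0.69 ± 0.07 (adjusted p = 2.6e-07). Nusap1, a spindle gene, fell by 1.14 ± 0.13 (adjusted p = 6.3e-07), but its other probe set did not move that way. The members that rose were Ncaph, a condensin subunit gene, by 0.98 and Ckap2, a spindle protein gene, by 1.21. Without the muscle arrays 35 mitosis genes fell (median of the list -0.59), and 19 fell without any array holding other tissue (median -0.70).

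DNA replication genes moved the same way, with 23 of 41 lower and 1 higher (Rfc4, by 0.28) and a median change of -0.39. Rrm2, the ribonucleotide reductase subunit that supplies deoxynucleotides, was at 7.11 to 7.99 in irradiated lungs (median 7.35), against 8.28 to 9.39 in sham lungs (median 8.75), with no overlap, and fell by 1.37 ± 0.11 (adjusted p = 4.2e-09). The licensing factor gene Cdt1 fell by 0.96 ± 0.09 (adjusted p = 1.7e-08), though 1 of its 2 other probe sets changed by 0.78. The helicase genes Mcm3 and Mcm5 fell by 0.75 ± 0.09 (adjusted p = 1.3e-06) and 0.87 ± 0.12 (adjusted p = 7.6e-06), and the thymidine kinase gene Tk1 by 2.28 ± 0.41 (adjusted p = 0.00029). Tk1 had a low mean log2 intensity of 4.28 in irradiated and 6.56 in sham lungs. Of 40 DNA repair genes 9 fell (22.5%, against 8.83% of all genes) and 3 rose (7.5%, against 6.11%), with a median of -0.17. Those that fell included Clspn, a checkpoint adaptor gene (-0.82 ± 0.13, adjusted p = 5.8e-05), Brca1 (-0.73 ± 0.12, adjusted p = 9.7e-05) and the histone gene H2ax (-0.42 ± 0.07, adjusted p = 0.00022). Chek2, Xrcc5 and Msh6 were the 3 that rose, by 0.47, 0.31 and 0.28, and without the muscle arrays Chek2 and Xrcc5 did not pass (adjusted p = 0.18 and 0.12). Of the replication genes 16 fell and 0 rose without the muscle arrays (median -0.35), and 9 fell without any array holding other tissue (median -0.43).

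Promoters of 3 of these genes are shown for the letters that cell cycle genes are known to carry, the cell cycle genes homology region (CHR, here TTTGAA or TTCGAA) in Top2a and Mki67 and an E2F site (here TTTCGCGC or TTTGGCGC) in Mcm5, in capitals, on either strand, with the same source and span as above.
Top2a, chr11:99024190-99024389, minus strand: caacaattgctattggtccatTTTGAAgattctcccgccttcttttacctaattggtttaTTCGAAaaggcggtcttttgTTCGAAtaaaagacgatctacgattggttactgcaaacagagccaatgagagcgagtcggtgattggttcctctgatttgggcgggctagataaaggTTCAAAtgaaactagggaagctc
Mki67, chr7:135716380-135716579, minus strand: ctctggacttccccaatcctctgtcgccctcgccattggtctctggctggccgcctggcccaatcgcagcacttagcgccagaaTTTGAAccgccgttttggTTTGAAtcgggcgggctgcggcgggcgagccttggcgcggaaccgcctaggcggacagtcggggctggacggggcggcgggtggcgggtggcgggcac
Mcm5, chr8:75109309-75109508, plus strand: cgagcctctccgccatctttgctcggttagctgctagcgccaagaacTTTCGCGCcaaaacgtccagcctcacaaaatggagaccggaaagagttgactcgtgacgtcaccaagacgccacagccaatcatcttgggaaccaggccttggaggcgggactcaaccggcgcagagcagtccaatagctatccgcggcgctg
CHR letters were found in the windows of 25 of 34 mitosis genes that fell (73.5%), against 17.5% of measured genes and 21.7% of all genes in the table, and in 4 of 20 replication genes that fell (20%). E2F letters were found in 8 of those 20 (40%), against 1.45% of measured genes and 0.929% of all genes, and in 1 of the 34 mitosis genes. No letters of one motif are contained in another. Over the whole mitosis list, called or not, 42 of 60 genes (70%) held CHR letters, and of the 2 mitosis genes that rose, 1 did. Over the whole replication list, called or not, 11 of 34 genes (32.4%) held E2F letters.

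B cell genes had the lowest median change of the 42 lists. Of 38 measured B cell genes, 36 fell (94.7%, against 8.83% of all genes) and 0 rose. In all 3 strains at once, 24 of them lay below every sham mouse of their strain, against 1.2% of all genes. The median change was -1.42. Their mean level was 7.07 to 8.58 per array in irradiated lungs, against 8.66 to 9.20 in sham lungs, with no overlap. Ms4a1, the CD20 gene, was at 7.16 to 10.53 in irradiated lungs (median 9.18), against 10.29 to 11.40 (median 11.19) in sham lungs, and fell by 1.91 ± 0.22 (adjusted p = 9.2e-07). Cd79a, a signalling chain of the B cell receptor, was at 5.86 to 8.40 (median 7.41), against 8.94 to 9.79 (median 9.47) in sham lungs, and fell by 2.04 ± 0.22 (adjusted p = 2.6e-07). Irradiated and sham mice overlapped for Ms4a1 across strains but not within any strain, and not at all for Cd79a. Tnfrsf13b, the TACI receptor gene, fell by 1.60 ± 0.12 (adjusted p = 4.1e-10), Blk, a B lymphoid kinase gene, by 1.63 ± 0.14 (adjusted p = 9.6e-09), and the scaffold gene Bank1 by 1.51 ± 0.13 (adjusted p = 9.6e-09). The transcription factor gene Ikzf3 fell by 1.78 ± 0.18 (adjusted p = 9.8e-08) and Fcer2a, the CD23 gene, fell by 1.91 ± 0.22 (adjusted p = 1e-06). Ebf1 and Pax5, transcription factors that set B cell identity, changed by -0.22 and -0.52 without passing (adjusted p = 0.23 and 0.21).

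Ighv14-2 was at 5.92 to 9.30 in irradiated lungs (median 7.61), against 9.51 to 10.76 in sham lungs (median 10.16), with no overlap, and fell by 2.53 ± 0.25 (adjusted p = 6e-08). Btla, an inhibitory receptor of lymphocytes, fell by 2.12 ± 0.16 (adjusted p = 1.1e-09), Hepacam2, a cell adhesion gene, by 2.00 ± 0.16 (adjusted p = 2.4e-09) and Gm36723, a predicted gene, by 1.80 ± 0.33 (adjusted p = 0.00045). Gm36723 had a mean log2 intensity of 4.31 in irradiated and 6.11 in sham lungs. Plasma cell genes were lower in 4 of 14 cases and higher in 0, with a median of -0.41 and falls of 0.58 ± 0.12 for the plasma cell regulator Prdm1 (adjusted p = 0.0018), 0.72 ± 0.18 for the transcription factor gene Irf4 (adjusted p = 0.0072; its other probe set changed by 0.21) and 0.77 ± 0.20 for the kappa light chain gene Igk (adjusted p = 0.0083).

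MHC class II genes, which B cells, dendritic cells and macrophages use to present peptides, fell in 9 of 11 cases with a median of -1.16 (81.8%, against 8.83% of all genes). In all 3 strains at once, 8 of them lay below every sham mouse of their strain, against 1.2% of all genes. H2-Aa was at 11.92 to 12.98 in irradiated lungs (median 12.45), against 13.45 to 14.06 (median 13.60) in sham lungs, and fell by 1.11 ± 0.08 (adjusted p = 1.1e-09). H2-Eb1 was at 10.15 to 12.04 (median 11.26), against 12.12 to 13.06 (median 12.58) in sham lungs, and fell by 1.39 ± 0.11 (adjusted p = 3.3e-09). H2-Ab1 fell by 1.16 ± 0.10 (adjusted p = 1.5e-08), and none of these genes overlapped between irradiated and sham mice. H2-Ob was at 5.73 to 8.44 (median 7.24), against 9.34 to 10.21 (median 9.72) in sham lungs, and fell by 2.48 ± 0.23 (adjusted p = 1.9e-08). Ciita, the master regulator of the class II genes, fell by 1.44 ± 0.13 (adjusted p = 9.3e-09), and Cd74, the invariant chain gene, by 0.78. The antigen-processing protease gene Ctss (-0.32) and H2-Eb2 (-0.19) did not pass (adjusted p = 0.18 and 0.36).

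The promoters of H2-Aa and H2-Eb1 are shown because class II promoters are known for a Y box, an inverted CCAAT. Capitals mark CCAAT letters on either strand (source and span as above). The second marked stretch of H2-Eb1, from -35, reads CCAAT in the forward direction and is not inverted.
H2-Aa, chr17:34287824-34288023, minus strand: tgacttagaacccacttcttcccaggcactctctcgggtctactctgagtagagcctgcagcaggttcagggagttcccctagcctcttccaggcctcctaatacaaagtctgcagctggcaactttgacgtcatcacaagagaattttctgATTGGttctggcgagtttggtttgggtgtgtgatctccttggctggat
H2-Eb1, chr17:34305667-34305866, plus strand: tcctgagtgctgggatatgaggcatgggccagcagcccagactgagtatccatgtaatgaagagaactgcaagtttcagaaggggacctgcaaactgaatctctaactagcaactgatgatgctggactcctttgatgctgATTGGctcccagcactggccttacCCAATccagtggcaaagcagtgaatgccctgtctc
CCAAT letters stood in the windows of 6 of the 6 class II genes that fell and had one, against 42.0% of measured genes and 41.1% of all genes, and in 8 of 28 B cell genes that fell (28.6%). They were also found in 25 of 34 mitosis genes that fell (73.5%), and in 9 of 12 genes of p53 arrest and feedback (75%) and 6 of 10 p53 death genes (60%) that rose, so a high share was not limited to class II genes. Over the whole class II list, called or not, 7 of 8 genes held CCAAT letters (87.5%).

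T cell genes fell in 27 of 46 cases with 0 higher and a median of -0.75. Il7r, the receptor for the T cell survival factor IL-7, was at 7.79 to 9.60 in irradiated lungs (median 8.33), against 9.46 to 10.18 in sham lungs (median 9.78), and fell by 1.32 ± 0.12 (adjusted p = 2.3e-08). Its groups overlapped only across strains. The T helper 1 regulator gene Tbx21 fell by 1.31 ± 0.13 (adjusted p = 4.7e-08), the IL-2 receptor gene Il2rb by 0.87 ± 0.12 (adjusted p = 1.9e-05), Cd8b1, a CD8 chain gene that thymocytes share, by 2.07 ± 0.53 (adjusted p = 0.0079), and Itgae, an integrin gene of tissue-resident T cells and of dendritic cells, by 2.07 ± 0.16 (adjusted p = 1.4e-09). Rag1, whose product assembles receptor genes in immature thymocytes, was at 0 to 10.67 in irradiated and 0.69 to 7.48 in sham lungs, and the mean of 13 thymocyte genes was 5.49 to 8.82 in irradiated and 6.35 to 7.47 in sham lungs. The part of thymus tissue in the T cell values was not tested. Without the muscle arrays 31 T cell genes fell (median of the list -0.88), and 17 fell without any array holding other tissue (median -0.79). Of 24 NK and cytotoxic genes, 17 fell and 0 rose, with a median of -0.85. The number that fell was 11 without the muscle arrays (median -0.73) and 3 without any array holding other tissue (median -0.64). Those that fell over all arrays included the granule protein gene Nkg7 (-1.04 ± 0.13, adjusted p = 2.5e-06), the transcription factor gene Eomes (-1.17 ± 0.18, adjusted p = 3.6e-05), the receptor gene Cd244a (-0.92 ± 0.12, adjusted p = 5.2e-06) and the chemokine gene Ccl5 (-1.64 ± 0.23, adjusted p = 1.8e-05).

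The myeloid lists split. Of 28 dendritic cell genes 18 fell and 0 rose (median -0.79), among them Wdfy4, which dendritic cells need for cross-presentation, by 1.31 ± 0.11 (adjusted p = 9.1e-09) and their transcription factor gene Irf8 by 1.13 ± 0.10 (adjusted p = 9.6e-09). Of 40 monocyte and macrophage genes 8 fell (20%, against 8.83% of all genes) and 7 rose (17.5%, against 6.11%), with a median of 0.23. Without the muscle arrays 9 fell and 5 rose (median 0.15), and without any array holding other tissue 3 fell and 1 rose (median 0.12). Ccr2, the chemokine receptor of inflammatory monocytes, was at 7.24 to 9.02 in irradiated lungs (median 7.85), against 9.15 to 9.86 in sham lungs (median 9.57), and fell by 1.53 ± 0.13 (adjusted p = 4.3e-09), with no overlap. Cx3cr1, the fractalkine receptor of patrolling monocytes, fell by 1.24 ± 0.13 (adjusted p = 2.3e-07), Spn by 1.05 ± 0.18 (adjusted p = 0.00014) and the growth factor receptor gene Csf1r by 0.32 ± 0.05 (adjusted p = 5.4e-05). The complement gene C1qb (0.76) and the matrix proteoglycan gene Vcan (0.76) were among those that rose. Of 23 alveolar macrophage genes 1 rose (4.35%) and 2 fell (8.7%), near the shares of all genes (6.11% and 8.83%). Among those that fell was Car4, a carbonic anhydrase gene that capillary cells share (-0.91 ± 0.12, adjusted p = 9.2e-06). The one that rose was Cxcl2, a chemokine gene that neutrophils also express (0.80 ± 0.16, adjusted p = 0.001).

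Neutrophil genes were higher in 9 of 27 cases and lower in 0, with a median of 0.31, and 4 were higher without any array holding other tissue (median 0.26). The median was 0.27 in C57L/J, 0.71 in C57BL/6J and 0.20 in CBA/J, a difference that was not tested for the list. In the separate fits of these strains, 1, 5 and 0 of the genes were called higher. Lcn2, the lipocalin that binds bacterial siderophores, was at 10.96 to 12.96 in irradiated lungs (median 11.99), against 10.58 to 11.72 in sham lungs (median 11.01), and rose by 0.98 ± 0.15 (adjusted p = 6.5e-05). The collagenase gene Mmp8 rose by 1.01 ± 0.23 (adjusted p = 0.0027), and the surface marker gene Cd177 by 1.05 ± 0.21 (adjusted p = 0.0012; adjusted p = 0.058 without the muscle arrays). Irradiated and sham mice overlapped for all 3 genes, though Lcn2 did not overlap within any strain. Of 34 chemokine ligand genes 5 rose (14.7%, against 6.11% of all genes) and 8 fell (23.5%, against 8.83%), with a median of 0.25. Without the muscle arrays 3 rose and 5 fell, with a median of 0.03, and without any array holding other tissue 0 rose and 2 fell. Ccl9 rose by 0.73 ± 0.14 (adjusted p = 0.00068), the dendritic cell product Ccl17 fell by 0.84 ± 0.13 (adjusted p = 7.3e-05) and Cxcl14 fell by 0.60 ± 0.12 (adjusted p = 0.00066).

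Of 50 interferon-stimulated genes 10 rose (20%, against 6.11% of all genes) and 2 fell (4%, against 8.83%), with a median of 0.16. Without the muscle arrays 5 rose and 2 fell (median 0.12), and without any array holding other tissue 1 rose and 0 fell (median 0.21). Ifi27l2a was at 11.15 to 13.81 in irradiated lungs (median 12.59), against 10.77 to 12.06 in sham lungs (median 11.52), and rose by 1.18 ± 0.21 (adjusted p = 0.00027). The tetherin gene Bst2 rose by 0.82 ± 0.15 (adjusted p = 0.0003) and the galectin-3 binding protein gene Lgals3bp by 0.64 ± 0.15 (adjusted p = 0.0039), whereas Irf1, an interferon-gamma target, fell by 0.47 ± 0.09 (adjusted p = 0.00038). The median change of the list was 0.41 in C57L/J, 0.26 in C57BL/6J and -0.20 in CBA/J, a difference that was not tested for the list. The C57L/J median rested in part on 1 muscle array: it was 0.23 without the mouse at 15 Gy, replicate 3, where the mean level of the list was 10.87, against 9.32 to 9.92 in the other irradiated mice of that strain. In CBA/J it lay between -0.25 and -0.10 with each mouse left out in turn, an alternative chosen after seeing the data.

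Epithelial lists were called in shares of at most 6.45% higher and 4.55% lower, against 6.11% and 8.83% of all genes. Among 27 type II cell genes 1 rose and 1 fell (Hc, the complement C5 gene, fell by 0.61 ± 0.12, adjusted p = 0.0011), among 22 type I cell genes 0 rose and 1 fell, among 31 club and secretory genes 2 rose and 1 fell, and among 37 ciliated cell genes 2 rose and 1 fell. Their medians were -0.06, -0.14, -0.01 and 0.16. Without the muscle arrays the calls were 3 higher and 1 lower for type II, 2 higher and 0 lower for type I, 1 higher and 5 lower for club and secretory, and 3 higher and 0 lower for ciliated cell genes, with medians of 0.06, 0.02, -0.15 and 0.12. The glutathione transferase gene Gsto1 rose by 0.97 ± 0.17 (adjusted p = 0.00025), the paraoxonase gene Pon1 fell by 0.83 ± 0.13 (adjusted p = 8.7e-05), Capsl of ciliated cells rose by 0.70 ± 0.11 (adjusted p = 9.7e-05), and Uchl1, a neuroendocrine marker and deubiquitinase gene, rose by 1.37 ± 0.17 (adjusted p = 3.6e-06), the only one of 14 neuroendocrine genes that passed.

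Of 40 capillary endothelial genes 16 fell and 1 rose, with a median of -0.31. Aplnr, the apelin receptor of general capillary cells, was at 9.87 to 10.82 in irradiated C57L/J lungs, against 11.78 to 12.35 in sham lungs of that strain. It was at 10.25 to 10.84 in irradiated C57BL/6J lungs, against 12.42 to 12.99 in their sham lungs, and at 11.32 to 11.88 in irradiated CBA/J lungs, against 12.83 to 13.35 in theirs. No strain overlapped, and the fall was 1.77 ± 0.13 (adjusted p = 3e-10), the lowest adjusted p among genes that fell. Gpihbp1, which anchors lipoprotein lipase in capillaries, fell by 0.91 ± 0.12 (adjusted p = 1.2e-05) and Sox17, an arterial transcription factor gene, by 0.85 ± 0.12 (adjusted p = 1.5e-05). Without the muscle arrays 7 of the 40 fell and the median was -0.13, Aplnr then falling by 1.65 (adjusted p = 5.2e-06). Without any array holding other tissue 4 fell, and the median was -0.27. The 20 genes of endothelial activation held 2 that rose and 4 that fell (1 and 3 without the muscle arrays, and 0 without any array holding other tissue), among them Cxcl12 (0.36 ± 0.09, adjusted p = 0.0074, and 0.064 without the muscle arrays; its 2 other probe sets lay between -0.74 and 0.10), Ccn2 (-0.55 ± 0.10, adjusted p = 0.0002) and the tip cell gene Esm1 (-0.92 ± 0.16, adjusted p = 0.00024).

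**Figure D3:**
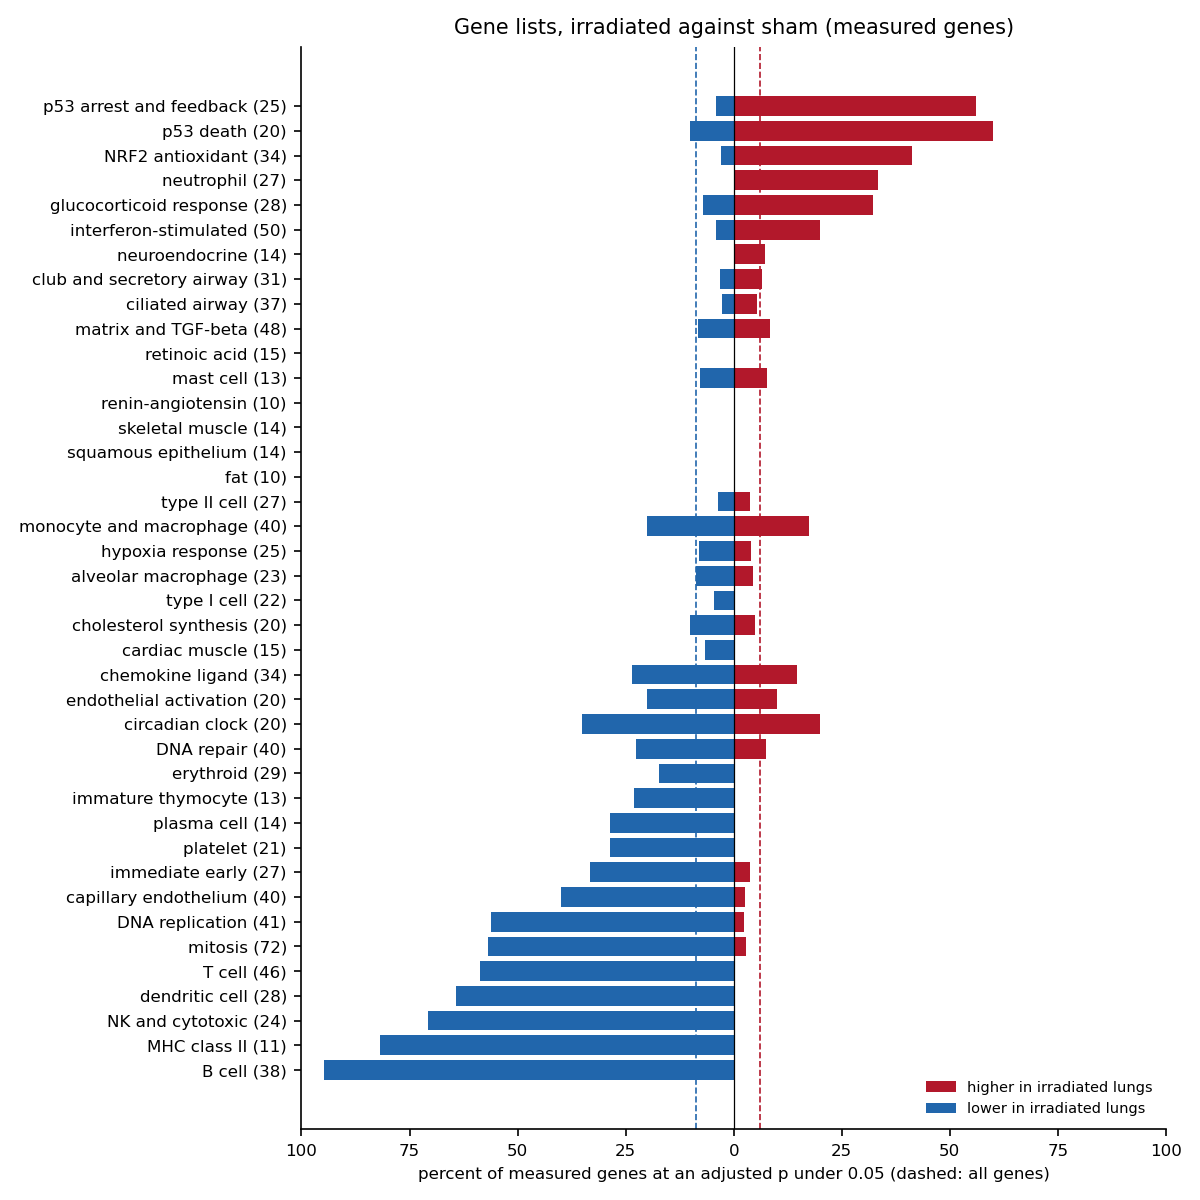
Percent of the measured genes of each list (number in brackets) that were higher, to the right, or lower, to the left, in irradiated lungs at an adjusted p under 0.05. Dashed lines mark all genes at 6.11% higher and 8.83% lower; 36 of 38 B cell genes lie to the left and 14 of 25 genes of p53 arrest and feedback to the right.

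Among stress and metabolic programs, 14 of 34 antioxidant genes of the NRF2 list rose and 1 fell (median 0.26). Without the muscle arrays 6 rose and 2 fell (median 0.13), and 2 rose without any array holding other tissue (median 0.0014). Ephx1, microsomal epoxide hydrolase, was at 12.66 to 13.51 in irradiated lungs (median 13.21), against 11.58 to 12.32 in sham lungs (median 12.09), and rose by 1.23 ± 0.10 (adjusted p = 2e-09) without overlap. Ephx1 also stands in the list of p53 death genes. The cystine transporter gene Slc7a11 rose by 1.33 ± 0.28 (adjusted p = 0.0016) and Gclc, which limits glutathione synthesis, by 0.58 ± 0.12 (adjusted p = 0.002). Of 28 glucocorticoid-responsive genes 9 rose and 2 fell (median 0.31). Without the muscle arrays 7 rose and 1 fell (median 0.14), and without any array holding other tissue 4 rose and 0 fell (median 0.05). Those that rose over all arrays included the mTORC1 inhibitor gene Ddit4 (1.09 ± 0.12, adjusted p = 2.3e-07), the acute-phase gene Saa3 (2.00 ± 0.33, adjusted p = 0.00012) and the kinase gene Sgk1 (0.53 ± 0.10, adjusted p = 0.00058).

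Clock genes moved in both directions, 4 of 20 higher and 7 lower (3 and 8 without the muscle arrays, and 0 and 3 without any array holding other tissue). Dbp, a clock output transcription factor, was at 9.89 to 11.90 in irradiated lungs (median 11.16), against 11.91 to 12.29 in sham lungs (median 12.11), and fell by 1.06 ± 0.17 (adjusted p = 0.00012). Its relatives Hlf and Tef fell by 0.76 ± 0.12 (adjusted p = 8.5e-05) and 0.49 ± 0.08 (adjusted p = 0.0001), while Nfil3, which represses the same sites, rose by 1.32 ± 0.24 (adjusted p = 0.00038). The core activator genes Arntl and Npas2 rose by 0.79 and 0.83, and Npas2 did not pass without the muscle arrays (adjusted p = 0.097). Dbp fell by 1.57 in C57L/J, 0.64 in C57BL/6J and 0.96 in CBA/J. The hour at which lungs were taken was not used here.

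Of 27 immediate early genes 9 fell and 1 rose (median -0.32), and 3 fell and 1 rose without the muscle arrays (median -0.17). The median was -0.12 in C57L/J, -0.51 in C57BL/6J and -0.08 in CBA/J, a difference that was not tested for the list. In the separate fits of these strains, 0, 5 and 0 of the genes were called lower. Egr1 fell by 0.88 ± 0.21 (adjusted p = 0.0047, and 0.066 without the muscle arrays). Erythroid genes were lower in 5 of 29 cases (7 without the muscle arrays), with Alas2, the heme synthesis enzyme of red cell precursors, down by 1.80 ± 0.27 (adjusted p = 3.9e-05) and the anion exchanger gene Slc4a1 by 1.5 ± 0.27 (adjusted p = 0.00029). Platelet genes were lower in 6 of 21 cases (median -0.26), and in 2 without the muscle arrays (median -0.22). Without any array holding other tissue 1 was higher and 0 were lower (median 0.04). Of 48 genes of matrix and TGF-beta signalling 4 rose and 4 fell (3 and 1 without the muscle arrays, and 1 and 0 without any array holding other tissue), and Mmp2, the gelatinase A gene, was at 11.90 to 12.86 in irradiated lungs (median 12.28), against 11.15 to 11.82 in sham lungs (median 11.42), without overlap, and rose by 0.82 ± 0.08 (adjusted p = 4.8e-08). Genes of hypoxia (1 of 25 higher, 2 lower), cholesterol synthesis (1 of 20 higher, 2 lower, and 0 without the muscle arrays), mast cells (1 of 13 higher, 1 lower), cardiac muscle (0 of 15 higher, 1 lower), retinoic acid (0 of 15) and the renin-angiotensin system (0 of 10) gave few calls or none. The shares of all genes were 6.11% higher and 8.83% lower. Near them lay the lists of hypoxia (4% and 8%), cholesterol synthesis (5% and 10%), mast cells (7.69% each way) and matrix (8.33% each way). Of 5 thyroid genes, Iyd, an iodide-recycling enzyme gene, rose by 0.82 ± 0.27 (adjusted p = 0.04), with its highest values, 11.55 and 10.27, on irradiated arrays that held thyroglobulin. The part of thyroid tissue was not tested, and the lists for squamous epithelium, fat and lymph node venules gave none.

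**Figure D4:**
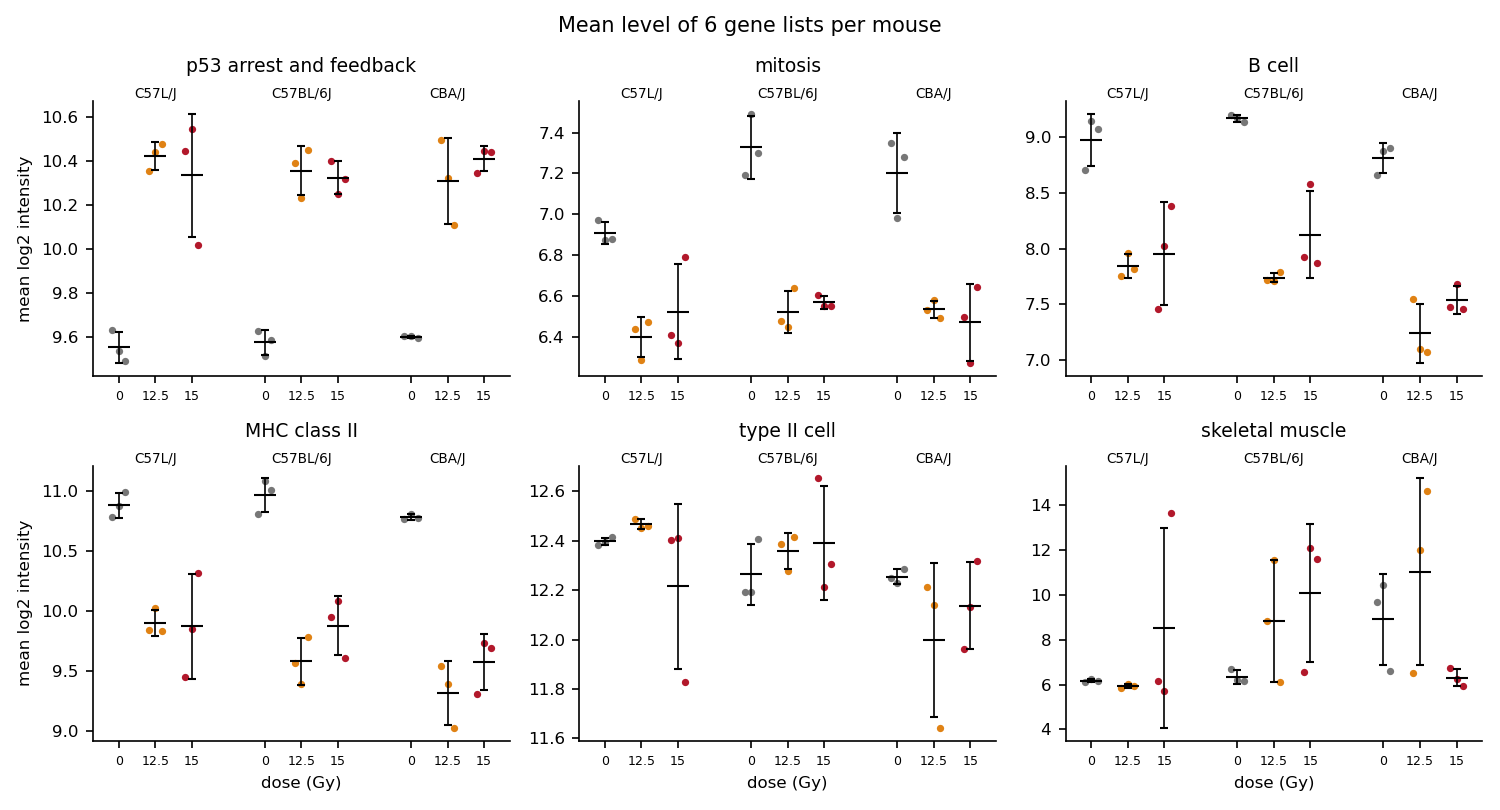
Mean log2 intensity of the genes of 6 lists (vertical axes) in each mouse at 0, 12.5 and 15 Gy (horizontal axes) in 3 strains, with 1 point per mouse and the mean ± SD of 3 mice in black. B cell means are 7.07 to 8.58 in irradiated and 8.66 to 9.20 in sham lungs, and skeletal muscle means range widely in both.

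Each strain was also fitted on its own 6 irradiated and 3 sham arrays. In C57L/J 55 genes (0.302%) were higher and 46 (0.253%) lower, in C57BL/6J 109 (0.599%) higher and 210 (1.15%) lower, and in CBA/J 79 (0.434%) higher and 201 (1.1%) lower. The strains share no mice. Of the higher genes, 32 were called in both C57L/J and C57BL/6J, which is 58.2% of the C57L/J and 29.4% of the C57BL/6J list, 29 in both C57L/J and CBA/J (52.7% and 36.7%) and 33 in both C57BL/6J and CBA/J (30.3% and 41.8%). Of the lower genes, 76 were called in both C57BL/6J and CBA/J, 36.2% of the C57BL/6J and 37.8% of the CBA/J list. C57L/J shared 23 lower genes with C57BL/6J (50% of the C57L/J and 11% of the C57BL/6J list) and 21 with CBA/J (45.7% of the C57L/J and 10.4% of the CBA/J list). No gene was called in opposite directions in any pair of strains (7 genes at an unadjusted p under 0.01 by limma). These counts rest on few arrays: without the muscle arrays they were 311 in C57L/J, where 1 array at 15 Gy (replicate 3) had been left out, 0 in C57BL/6J, where 2 irradiated arrays remained and 1800 genes had an unadjusted p under 0.05 by limma, and 2 in CBA/J, where 1 sham array remained whose spread was taken to be that of the other group.

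All 3 strains called 25 genes higher and 16 lower. Genes named here that are not described above were chosen after their values were seen. Those higher held 8 of the genes of p53 arrest and feedback and 5 of p53 death, and 11 in no list. Outside the lists stood Rps27l, a ribosomal protein gene, with a rise of 0.96 ± 0.06 (0.90 in C57L/J, 1.00 in C57BL/6J and 0.99 in CBA/J), the thiamine transporter gene Slc19a2 (1.68 ± 0.11), the nuclear pore gene Aaas (1.05 ± 0.08), Commd3 (1.25 ± 0.09), the ubiquitin ligase adaptor gene Dcaf4 (1.31 ± 0.09), the gamma-synuclein gene Sncg (1.42 ± 0.13) and 9230114K14Rik (1.42 ± 0.10). The DNA polymerase kappa gene Polk, which copies past lesions, rose by 0.91 ± 0.09 and Gtse1, a p53-binding G2 gene, by 1.68 ± 0.15. Those lower held Gpr183, an oxysterol receptor that positions lymphocytes, which fell by 1.53 in C57L/J, 1.53 in C57BL/6J and 1.52 in CBA/J, and Marchf1, a ubiquitin ligase gene that turns over class II molecules, which fell by 1.02 ± 0.10. Klhl6, Lsp1, Nup210 and Rnase6 fell by 0.89 ± 0.07, 1.12 ± 0.11, 1.33 ± 0.12 and 1.26 ± 0.09.

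**Figure D5:**
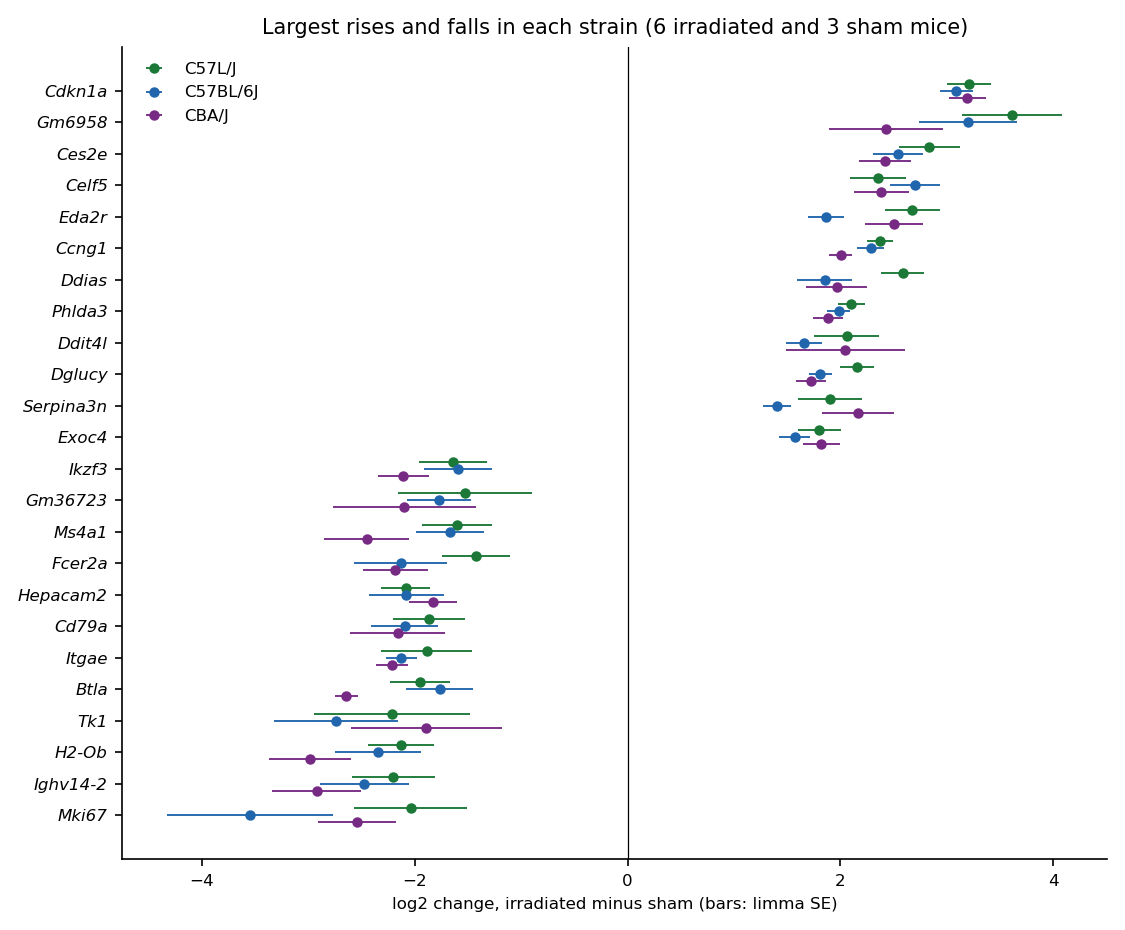
Log2 change, irradiated minus sham (horizontal axis, bars limma SE), of the 12 largest rises and 12 largest falls in each strain, fitted on 6 irradiated and 3 sham mice. Cdkn1a lies at 3.21, 3.09 and 3.19 in C57L/J, C57BL/6J and CBA/J, and Mki67 at -2.04, -3.55 and -2.54.

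Whether the change depended on the strain was tested as an interaction over all arrays. No gene passed at an adjusted p under 0.05 by limma, the lowest being 0.18, and 960 genes (5.28% of 18194) had an unadjusted p under 0.05. With 6 irradiated and 3 sham mice a strain, this does not show that the strains responded alike. The lowest p-values were those of Zp3, a gene of the egg coat, which changed by 0.92 ± 0.25 in C57L/J, 0.61 ± 0.22 in C57BL/6J and -1.08 ± 0.26 in CBA/J, and of Ly6e, an interferon-inducible surface protein gene, which changed by -0.03 ± 0.16, -0.07 ± 0.15 and 1.1 ± 0.18 in the same strains. Of the mitosis list the median change was -0.42 in C57L/J, -0.70 in C57BL/6J and -0.67 in CBA/J, and of the B cell list -1.14, -1.37 and -1.57.

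Between the irradiated doses, 15 against 12.5 Gy with the strain as a block, no gene passed either, and 791 genes (4.35%) had an unadjusted p under 0.05 by limma. Set against the same sham mice, Celf5 rose by 2.28 at 12.5 Gy and by 2.68 at 15 Gy, a difference of 0.39 ± 0.16 between the doses. Ces2e rose by 2.51 and 2.68 (difference 0.17 ± 0.17), and Ccng1 by 2.18 and 2.26 (difference 0.08 ± 0.08). H2-Ob fell by 2.78 at 12.5 Gy and fell by 2.19 at 15 Gy (15 minus 12.5 Gy, 0.59 ± 0.24), Ighv14-2 fell by 2.95 and fell by 2.12 (0.83 ± 0.24) and Btla fell by 2.28 and fell by 1.96 (0.32 ± 0.18). The adjusted p of each difference was 0.999. The highest B cell means among irradiated lungs, 8.38 in C57L/J (replicate 3) and 8.58 in C57BL/6J (replicate 2), both lay at 15 Gy on arrays with Glycam1 above a log2 intensity of 6. Without the 4 arrays with Glycam1 at that level (2 at 15 Gy, 1 at 12.5 Gy and 1 sham), an alternative chosen after seeing the data, the differences were 0.41 ± 0.25 for H2-Ob, 0.58 ± 0.23 for Ighv14-2 and 0.08 ± 0.16 for Btla (adjusted p = 0.76, 0.74 and 0.92), and limma called 0 genes (1209 were below 0.05 before adjustment). The differences of the genes that rose were larger without those arrays, at 0.55 ± 0.14 for Celf5, 0.28 ± 0.18 for Ces2e and 0.09 ± 0.09 for Ccng1. That of Cdkn1a was 0.15 ± 0.12, against 0.03 ± 0.12 over all arrays. The part of lymph node tissue was not tested.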

How the data were processed

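Each of the 27 arrays holds 1 mouse lung. The deposited values are linear intensities per probe set, which per the labels the authors made with Affymetrix Expression Console 1.1 (which summary method was used is not stated). The values have a 2% trimmed mean of 500 on each array. Intensities were floored at 1 and taken to log2 here with no further normalization. Of 45101 probe sets 34958 named 1 gene, and the brightest probe set stood for each of 18194 genes. Fits used limma 3.58.1 (lmFit, eBayes) in R 4.3.3 with the strain as a block and Benjamini-Hochberg adjusted p under 0.05. Tables and figures used Python 3.11, numpy 2.4.6, pandas 2.3.3 and matplotlib 3.10.9. The fit was tested on simulated data. The number of arrays limits the precision.

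Named genes were Cdkn1a, the 12 largest rises and 12 largest falls among called genes with a mean log2 intensity of at least 6 in the higher group and no overlap in any strain, up to 4 called members of each list with the lowest adjusted p, and the genes with the lowest interaction p. Other list members, tissue markers and genes called in each strain were named after their values were seen. The comparison and the lists were chosen with earlier results of these data known. Alternatives covered the floor, normalization, probe set choice, level filter, test, strain block, doses, strains, muscle arrays, lymph node arrays and each array left out.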

Additional observations from a re-analysis of the deposited data

Results flagged for a closer look

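Within the 6 irradiated mice of each strain and within the 9 sham mice, 44 of 412 groups of values (102 genes in 4 groups each, and the muscle score) held 1 mouse whose gap to the nearest other mouse exceeded Dixon's 95% limit, which chance gives in about 1 in 20 groups. Values are log2 intensities, each beside the range of the other mice of its group, and no cause was tested.

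17 of these values came from the C57L/J mouse at 15 Gy, replicate 3, an array with muscle transcripts and Rag1, Glycam1 and Tg above a log2 intensity of 6 (Glycam1 at 12.38, the highest of 27 arrays). It was higher than the other mice for Ddit4l 11.04 (9.44 to 9.96), Gsto1 13.89 (12.84 to 13.07), H2ax 9.82 (9.36 to 9.52), Il7r 9.60 (8.32 to 8.79) and Irf4 8.24 (6.17 to 6.86). It was higher than the other mice for Iyd 10.27 (8.68 to 9.05), Mki67 8.11 (5.58 to 6.46), Rrm2 7.98 (7.11 to 7.37) and the muscle score 7.15 (-0.76 to -0.33). It was lower than the other mice for Car4 10.13 (10.97 to 11.17), Cxcl14 8.79 (9.73 to 10.09), Ddias 7.31 (7.85 to 8.17), Gclc 11.21 (12.00 to 12.14) and Hc 11.50 (12.46 to 12.81). It was lower than the other mice for Prdm1 7.89 (8.70 to 9.02), Sox17 9.91 (10.82 to 11.15) and Zmat3 10.12 (10.55 to 10.77).

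9 of these values came from the CBA/J mouse at 12.5 Gy, replicate 3, an array with muscle transcripts and Rag1 and Tg above a log2 intensity of 6. It was higher than the other mice for Ddit4l 12.29 (9.61 to 10.50), Iyd 11.55 (8.26 to 8.72) and Nfil3 9.03 (7.12 to 7.82). It was lower than the other mice for Ddias 7.18 (8.20 to 8.63), Ei24 12.35 (12.63 to 12.75), Exoc4 11.70 (12.26 to 12.43), Ly6e 13.18 (13.55 to 13.73) and Phlda3 11.87 (12.30 to 12.41). It was lower than the other mice for Zmat3 10.18 (10.72 to 10.90).

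The C57L/J mouse at 12.5 Gy, replicate 1 had Il2rb 6.28 (others 7.09 to 7.47), below the others, Saa3 11.87 (others 8.78 to 9.90), above the others and Slc7a11 6.31 (others 6.81 to 7.09), below the others. The sham C57BL/6J mouse at 0 Gy, replicate 2 had H2-Aa 14.06 (others 13.45 to 13.67), above the others and Nfil3 4.06 (others 5.47 to 6.85), below the others. The C57BL/6J mouse at 12.5 Gy, replicate 3 had Irf4 6.01 (others 6.87 to 7.11), below the others and Uchl1 6.99 (others 8.32 to 9.09), below the others. The C57BL/6J mouse at 15 Gy, replicate 3 had Ccnb2 6.84 (others 6.54 to 6.63), above the others and Eda2r 8.71 (others 8.11 to 8.32), above the others. The CBA/J mouse at 15 Gy, replicate 1 had H2-Aa 11.92 (others 12.25 to 12.37), below the others and Hlf 10.24 (others 10.59 to 10.76), below the others. The C57BL/6J mouse at 12.5 Gy, replicate 1 had Mki67 2.77 (others 5.18 to 6.49), below the others. The C57BL/6J mouse at 15 Gy, replicate 1 had Tef 12.35 (others 11.96 to 12.11), above the others. The C57BL/6J mouse at 15 Gy, replicate 2 had Ighv14-2 9.30 (others 7.16 to 7.91), above the others. The C57L/J mouse at 15 Gy, replicate 1 had Ccn2 12.16 (others 11.63 to 11.79), above the others. The sham CBA/J mouse at 0 Gy, replicate 1 had Wdfy4 9.95 (others 10.36 to 10.56), below the others. The sham CBA/J mouse at 0 Gy, replicate 3 had Saa3 8.97 (others 7.11 to 7.92), above the others. The CBA/J mouse at 15 Gy, replicate 2 had Ccnb2 6.14 (others 6.44 to 6.60), below the others.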

How the results depend on the processing

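Of the 24 largest changes, 23 were called under all 49 alternatives, and Gm36723 was lost under 1. Over the 102 genes tracked, 4863 values kept direction and call, 127 were no longer called, 4 became called and 4 changed sign: Nusap1 at 0.0107, Cdt1 at 0.7767 and Irf4 at 0.21 with the most variable probe set, and Cxcl12 at -0.096 with the mean of probe sets, since these settings read other probe sets. The 2717 genes called over all arrays became 1598 with the most variable probe set, 281 when a 2-fold change was also asked, 1664 with 12.5 Gy and sham arrays only, 1664 without C57L/J, 1226 without C57BL/6J and 1470 without CBA/J, 1747 without the muscle arrays and 548 without arrays of muscle, thymus, lymph node or thyroid transcripts, the last chosen after seeing the data, and fewer arrays enter all but the first 2. Leaving out 1 array gave 2209 to 2860. Called genes in C57L/J, C57BL/6J and CBA/J numbered 168, 518 and 490 with a floor of 32, 188, 647 and 457 with a robust, intensity-dependent prior, 721, 1178 and 991 at an unadjusted p under 0.01, and 311, 0 and 2 without the muscle arrays. Leaving out 1 array gave 26 to 311 in C57L/J (lowest without 0 Gy replicate 2, highest without 15 Gy replicate 3), 94 to 283 in C57BL/6J (lowest without 0 Gy replicate 2) and 65 to 321 in CBA/J (lowest without 0 Gy replicate 2, highest without 12.5 Gy replicate 3). The interaction called 1 gene with a floor of 32, 233 at an unadjusted p under 0.01, 4 without the muscle arrays and 0 to 2 with 1 array left out. The dose contrast gave 121 at an unadjusted p under 0.01 and 0 to 0 with 1 array left out. Where the cause is not stated it was not tested. The replicate number as a block gave 2598 genes over all arrays, and 42, 160 and 110 in C57L/J, C57BL/6J and CBA/J. Same-numbered arrays deviated together (r over 0.1) in 3 of 27 pairs, so the numbers were not taken to pair the mice. Low signal limits genes such as Tk1 and Gm36723.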
